A study of Mus musculus with 18 samples.

Results

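Mitosis and G2/M genes are the genes whose products drive a cell from the end of DNA replication through chromosome condensation, spindle assembly, chromosome separation and cytokinesis. Here they are a list of 54 gene symbols, given by name and not chosen by a threshold on their levels, and all 54 were found among the 54354 rows of the count table. They were described in 10 libraries of mouse colon on serine-free food, of which 5 came from a serine-free control diet (SF_CD) and 5 from a serine-free high fat diet (SF_HFD). Each of the 54 passed the filter on low counts, as did 11780 genes in all. The series holds 18 libraries in 4 diet groups, and the 8 libraries of the diets with serine (CD and HFD) were not used. In those 8 columns the row labels do not name the genes counted, and 29 of the 54 rows labelled as mitosis genes are at 0 in every one of them. The labels give a wild type genotype, tumor as the cell type and a diet for both serine-free groups, with no age, sex, strain or duration of feeding. RNA came from organoids, small epithelial cultures, according to the labelled extraction, whereas the design text of the series speaks of sorted living cells, and which of these was sequenced is not clear from them. Nothing in the labels says that libraries of a group came from different mice or cultures, and the p-values below reflect variation among libraries that may be technical.

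Entry into mitosis is driven by cyclin-dependent kinase 1 (Cdk1) bound to a B-type cyclin. The spindle checkpoint then holds the cell until every kinetochore, the protein plate on the centromere, is attached to microtubules, and the anaphase-promoting complex ends mitosis by marking cyclin B and securin for destruction. Transcripts of these genes are scarce early in the cycle and build up through G2, so in a dividing tissue such as the intestinal crypt they mark cells that are cycling. In bulk RNA, fewer cells in mitosis and less of each RNA per cell cannot be told apart.

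Many of these genes share a promoter layout, which is shown here because it is a feature of the genes that the choice of members did not use. CCAAT boxes bind the factor NF-Y, and the cell cycle genes homology region (CHR) binds the MuvB core, which acts in the DREAM repressor and in the activators with B-MYB and FOXM1. RefSeq promoters (build GRCm38.p6, 250 bases before to 50 bases after the gene start) were found by symbol for 45 of the 54 members. Aurkb, Ccna2, Cdc25c, Cdca2, Dlgap5, Foxm1, Kif20a, Smc4 and Tpx2 had no match. A CHR was searched as TTTGAA or TTCGAA and a CCAAT box as CCAAT, on both strands, and matches of the motifs may share end letters. A CHR match lay in 36 of 45 members (80.0%), against 21.7% of 27025 genes with a promoter. A CCAAT match lay in 35 of 45 (77.8%), against 41.1% of those genes, and both lay in 32 of 45 (71.1%), against 8.61%. A match is a run of letters, and binding was not measured. The 110 bases upstream of the RefSeq start are given below for 8 members that differ in length, role and change. They run 5′ to 3′ on the gene's own strand, with both motifs in capitals on either strand. By the GENCODE M21 gene positions used further below, part of the stretch of Cdk1, Cks1b and Ccnb1 lies inside the gene.

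Cdk1, chr10:69352913-69353022, minus strand: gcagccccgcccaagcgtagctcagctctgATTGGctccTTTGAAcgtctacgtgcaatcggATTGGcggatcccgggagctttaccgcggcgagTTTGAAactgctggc
Cks1b, chr3:89418292-89418401, minus strand: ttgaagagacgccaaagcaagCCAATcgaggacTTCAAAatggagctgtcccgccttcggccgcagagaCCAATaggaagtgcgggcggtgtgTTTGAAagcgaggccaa
Top2a, chr11:99024190-99024299, minus strand: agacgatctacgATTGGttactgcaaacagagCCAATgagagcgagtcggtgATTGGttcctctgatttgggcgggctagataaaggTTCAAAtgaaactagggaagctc
Hmgb2, chr8:57511733-57511842, plus strand: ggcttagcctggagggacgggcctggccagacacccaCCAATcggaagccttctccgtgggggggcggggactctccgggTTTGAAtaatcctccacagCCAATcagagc
Gas2l3, chr10:89443968-89444077, minus strand: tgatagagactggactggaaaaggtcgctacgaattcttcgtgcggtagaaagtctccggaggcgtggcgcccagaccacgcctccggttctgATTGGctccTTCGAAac
Ckap5, chr2:91526652-91526761, plus strand: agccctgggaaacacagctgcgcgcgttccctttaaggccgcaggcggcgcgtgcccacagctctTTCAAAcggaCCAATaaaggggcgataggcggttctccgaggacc
Ccnb1, chr13:100786487-100786596, minus strand: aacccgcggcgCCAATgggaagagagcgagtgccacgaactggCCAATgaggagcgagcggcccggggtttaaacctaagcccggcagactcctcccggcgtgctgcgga
Nusap1, chr2:119618188-119618297, plus strand: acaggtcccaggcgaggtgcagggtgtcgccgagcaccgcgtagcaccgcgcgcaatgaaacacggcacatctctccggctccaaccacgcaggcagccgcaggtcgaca

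Cdk1, Cks1b, Top2a, Hmgb2, Gas2l3 and Ckap5 carry both kinds of motif, Ccnb1 carries CCAAT boxes without either CHR form, and Nusap1 has neither in its 300-base window. The medians of members with and without a CHR match changed order between all libraries and the deeper ones. With only 9 members lacking either exact form, the comparison cannot say whether a CHR goes with the difference between diets. Of the 36 members with a CHR match 33 had a negative log2 fold change, with a median of -0.63, and of the 9 without one 9 did, with a median of -0.36, while in the 7 deeper libraries described next the medians were -0.69 and -0.84.

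The SF_CD libraries held 499774 to 12841275 counts each, and the SF_HFD libraries 727610 to 12146933. The 3 libraries under 1000000 counts were SF_CD 1, SF_CD 5 and SF_HFD 5. Ribosomal RNA took 22.0% and 14.5% of the counts in SF_CD 1 and SF_CD 5 and between 2.08% and 7.19% in the other 8 libraries. Protein-coding genes took 63.5% and 81.0% in SF_CD 1 and SF_CD 5, against 89.4% to 94.7% in the others. Malat1, a non-coding RNA, took 12.1% in SF_CD 1, against at most 1.66% in the others, and 14 of the members had under 10 counts in SF_CD 1. Results are therefore given for all 10 libraries and again for the 7 deeper ones (SF_CD 2 to 4 and SF_HFD 1 to 4). Levels are counts scaled to library size (CPM) after TMM scaling, except that sums over a list and shares of all counts are of unscaled counts. None of these corrects for gene length, so a difference in level between genes or lists within a library also carries their lengths. Fold changes are on the log2 scale as SF_HFD minus SF_CD, so a negative value is lower on the high fat diet.

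Most mitosis and G2/M genes had lower levels in SF_HFD than in SF_CD, but no single member passed the test. The fold change was negative for 49 of the 54 members, against 48.6% of all genes tested. The median over the members was -0.59, against 0.02 over all genes. At an adjusted p under 0.05 edgeR's quasi-likelihood test called 0 members, and it called 0.323% of the 11780 genes. At an unadjusted p under 0.05, 20 members were lower, where 6.73% of all genes were, and 0 were higher, where 4.92% of all genes were. The groups did not overlap for 7 members, each lower in SF_HFD (Cdca2, Ndc80, Bub1b, Nusap1, Ckap2l, Ckap5 and Prc1), against 1.42% of all genes in that direction, and for 0 members in the other, against 2.23%.

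Other tools called some members, always lower in SF_HFD. DESeq2 called 7 (Cdca2, Cenpf, Ndc80, Bub1b, Nusap1, Ckap2l and Ckap5), where it called 1.87% of genes lower. Limma-voom with library quality weights called 6 (Cdca2, Ndc80, Nusap1, Ckap2l, Dlgap5 and Prc1), where it called 0.611% of genes lower. Cdca2, Ndc80, Nusap1 and Ckap2l were called by both. EdgeR without the filter on low counts called 1, Cdca2, where it called 0.222% of genes lower.

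The 7 deeper libraries gave the same direction for most members. The fold change was negative for 50 members, against 47.4% of 12653 genes, and the median was -0.71, against 0.04. At an unadjusted p under 0.05, 28 members were lower, where 7.97% of genes were, and 0 were higher, where 8.56% were. The groups did not overlap for 26 members that were lower in SF_HFD, against 9.29% of genes, and for 0 that were higher, against 9.42%. The test again called 0 members (0.205% of genes), and the smallest adjusted p among them was 0.107, shared by Kif20a and Cdk1 (edgeR). The plot of fold changes by member sets both fits side by side.

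**Figure D1:**
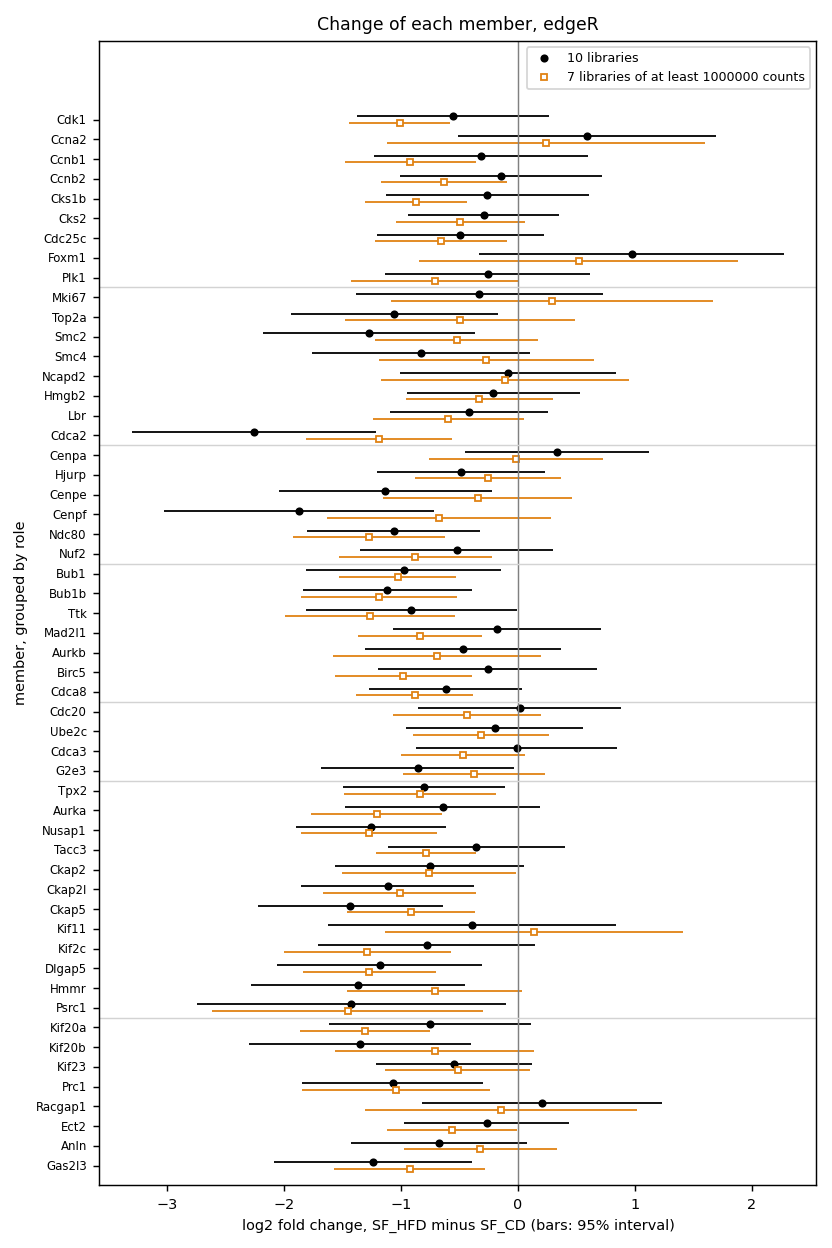
Log2 fold change of each of the 54 members, SF_HFD minus SF_CD, with its 95% interval, in order of role. Black points are from all 10 libraries and open orange squares from the 7 libraries of at least 1000000 counts. Of the black points 49 lie left of 0, and of the orange squares 50 do.

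Cdk1 and its regulators (9 members) had negative fold changes for 7 members, with a median of -0.26 in all libraries and -0.66 in the deeper ones. Cdk1, the kinase itself, had 47.3, 246, 221, 251 and 140.2 CPM in SF_CD 1 to 5 and 117, 137, 115, 106 and 147 CPM in SF_HFD 1 to 5. Its groups overlapped only through SF_CD 1 and 5, the 2 shallow SF_CD libraries, and its log2 fold change was -0.56 ± 0.39 (SE, adjusted p = 0.605, edgeR). Without the 3 shallow libraries it was -1.01, with a 95% interval from -1.44 to -0.58 (adjusted p = 0.107, edgeR). Ccnb1, cyclin B1, the partner that carries Cdk1 into mitosis, had 49.6, 322, 245, 369 and 201 CPM in SF_CD and 221, 133, 169.8, 135 and 304 CPM in SF_HFD. Its groups overlapped widely, with a log2 fold change of -0.31 ± 0.43 (SE) in all libraries and -0.92 (95% interval -1.48 to -0.36) in the deeper ones.

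Cks1b, a small subunit that docks Cdk complexes on phosphorylated targets, had 76.6, 422, 406, 433 and 206 CPM in SF_CD and 199, 257, 263, 199.6 and 378 CPM in SF_HFD. SF_CD 2 to 4 lay above every SF_HFD library, whereas SF_CD 1 and 5 lay among or below them, and the log2 fold change was -0.26 ± 0.41 (SE) in all libraries and -0.87 (95% interval -1.31 to -0.44) in the deeper ones. Ccnb2 (-0.15 and -0.63), Plk1 (-0.26 and -0.71), Cks2 (-0.29 and -0.49) and Cdc25c (-0.49 and -0.66) were also more negative in the deeper libraries. Foxm1, the transcription factor that drives many G2/M promoters, had 0, 6.72, 3.78, 7.36 and 1.95 CPM in SF_CD and 2.26, 18.4, 7.40, 6.94 and 13.9 CPM in SF_HFD. It was the member with the highest fold change, 0.97 ± 0.62 (SE, adjusted p = 0.564, edgeR), and its groups overlapped. In SF_CD 1, where it had 0 counts, 3 counts would be 6.003 CPM before TMM scaling. Ccna2, cyclin A2, which acts in S phase and early mitosis, was the other member here with a positive value, 0.59. It was highest in SF_HFD 2, and its value was -0.10 without that library and -0.32 in limma-voom, so its direction is not settled.

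**Figure D2:**
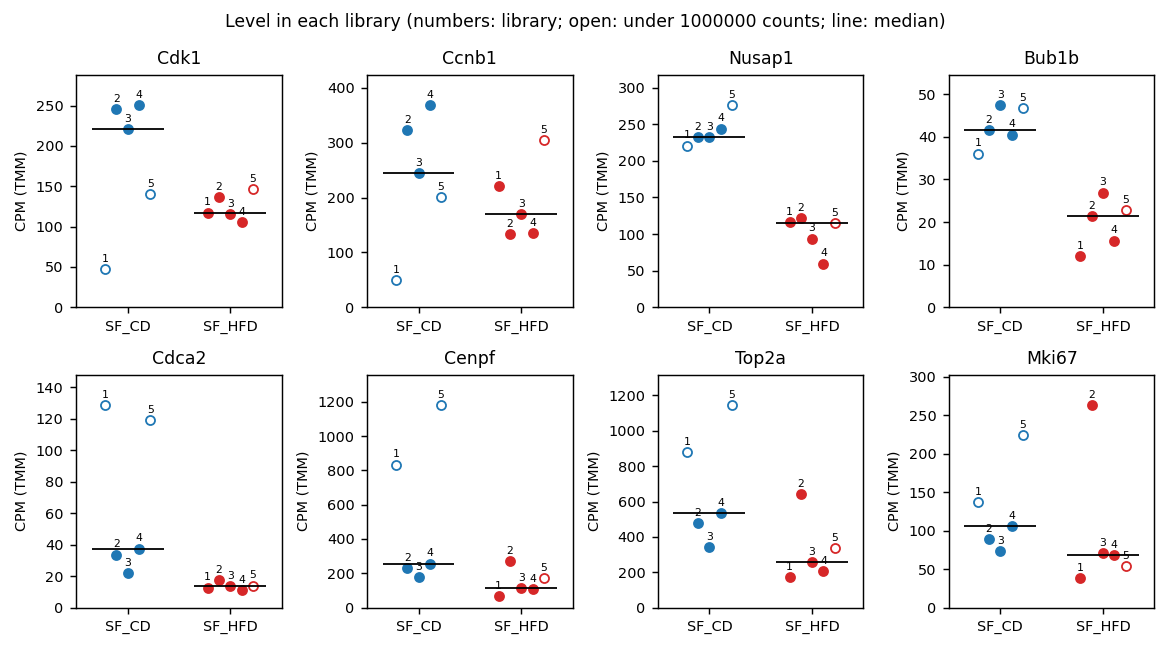
Level in CPM (TMM) of 8 members in each library, numbered by library. Open points are libraries under 1000000 counts and the line is the group median. Nusap1, Bub1b and Cdca2 show no overlap between the diets. For Cdk1 and Ccnb1, SF_CD 2 to 4 lie above SF_HFD 1 to 4, with SF_CD 1 lowest of all 10, and for Mki67 and Top2a SF_HFD 2 lies far above the others of its group.

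Chromosome structure and nuclear envelope genes (8 members) all had negative values in all libraries, with a median of -0.62, and 7 of the 8 did in the deeper ones, with a median of -0.41. Cdca2, which recruits a phosphatase to chromosomes as mitosis ends, had 129, 33.6, 22.0, 37.4 and 119 CPM in SF_CD and 12.7, 17.3, 13.5, 11.2 and 13.9 CPM in SF_HFD. Every SF_HFD library lay below every SF_CD library. It had the smallest p of the 54, with a log2 fold change of -2.26 ± 0.49 (SE, adjusted p = 0.0698, edgeR). SF_CD 1 and 5 stood far above SF_CD 2 to 4, and without the shallow libraries the value was -1.19 (95% interval -1.82 to -0.56). Leaving out SF_CD 2 or SF_CD 3 brought it past the threshold, at an adjusted p of 0.0328 and 0.0260 (edgeR), where 0.520% and 0.343% of genes were called lower.

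Top2a, the topoisomerase that untangles sister DNA, had 879, 478, 340.4, 534 and 1145 CPM in SF_CD and 171, 642, 259, 208 and 336 CPM in SF_HFD. SF_HFD 2 lay above SF_CD 2 to 4 and the other SF_HFD libraries lay below all of SF_CD. The log2 fold change was -1.06 ± 0.42 (SE) in all libraries and -0.50 (95% interval -1.48 to 0.49) in the deeper ones. Mki67, the proliferation antigen that coats mitotic chromosomes, had 138, 89.5, 73.7, 106 and 224 CPM in SF_CD and 37.8, 263, 70.4, 68.1 and 54.3 CPM in SF_HFD. Its direction depended on the libraries, at -0.33 ± 0.50 (SE) in all of them and 0.29 (95% interval -1.09 to 1.66) in the deeper ones, so these data give no direction for it. Hmgb2, a DNA-bending protein abundant in dividing cells, had 282, 986, 728, 727 and 894 CPM in SF_CD and 576, 996, 536, 488 and 532 CPM in SF_HFD, with overlapping groups and a log2 fold change of -0.21 ± 0.35 (SE). The condensin genes Smc2, Smc4 and Ncapd2 had -1.27, -0.83 and -0.08 in all libraries and -0.53, -0.27 and -0.11 in the deeper ones. Lbr, a receptor that ties chromatin to the inner nuclear membrane, had -0.42 and -0.60.

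Centromere and kinetochore genes (6 members) had negative values for 5 members, with medians of -0.79 in all libraries and -0.51 in the deeper ones. Cenpf, a large protein of the outer kinetochore, had 834, 229, 178, 256 and 1180.0 CPM in SF_CD and 64.7, 271, 115, 106 and 173 CPM in SF_HFD. SF_HFD 2 overlapped SF_CD, and the value of -1.87 ± 0.54 (SE, adjusted p = 0.189, edgeR) became -0.68 (95% interval -1.64 to 0.29) without the 3 shallow libraries. The motor Cenpe followed it, from -1.14 to -0.34. Ndc80, whose complex holds the microtubule end, changed little between the fits, at -1.06 and -1.28, and its partner Nuf2 went from -0.53 to -0.88. Cenpa, the centromeric histone, and its loader Hjurp lay at 0.33 and -0.49 in all libraries and at -0.02 and -0.26 in the deeper ones.

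Spindle checkpoint and chromosomal passenger genes (7 members) were negative without exception in both fits, with medians of -0.62 and -0.98. In the deeper libraries 6 of them were lower in SF_HFD without overlap, against 9.29% of all genes. Bub1b, which makes BubR1, a part of the complex that blocks anaphase, had 36.1, 41.7, 47.5, 40.5 and 46.7 CPM in SF_CD and 12.0, 21.4, 26.9, 15.6 and 22.7 CPM in SF_HFD. The groups did not overlap, the SF_CD libraries were close together, and the log2 fold change was -1.12 ± 0.34 (SE, adjusted p = 0.209, edgeR) and -1.19 in the deeper ones. Mad2l1, the checkpoint protein that binds Cdc20, had 67.6, 328, 344, 311 and 197 CPM in SF_CD and 145, 142, 202, 242 and 381 CPM in SF_HFD. SF_HFD 5 was above every SF_CD library and SF_CD 1 below every SF_HFD library, so the value was -0.18 ± 0.42 (SE) in all libraries and -0.84 (95% interval -1.37 to -0.31) in the deeper ones. The checkpoint kinases Bub1 and Ttk had -0.98 and -0.91 in all libraries and -1.03 and -1.27 in the deeper ones. Of the passenger complex, which corrects faulty attachments, Cdca8 had -0.62 and -0.88, Birc5 had -0.26 and -0.98, and the kinase Aurkb had -0.47 and -0.69.

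Ubiquitin ligases and their partners (4 members) had a median of -0.11 in all libraries, nearest to 0 of the 7 role groups, and -0.41 in the deeper ones. In either fit 0 members were free of overlap, where 1.42% and 9.29% of all genes were lower without overlap. Cdca3, which helps to destroy the Cdk1 inhibitor Wee1, had 20.3, 133, 91.4, 102 and 48.7 CPM in SF_CD and 61.4, 95.4, 79.6, 78.4 and 85.9 CPM in SF_HFD, with a log2 fold change of -0.01 ± 0.41 (SE). G2e3, a ubiquitin ligase, had 74.4, 28.0, 31.2, 33.2 and 37.0 CPM in SF_CD and 15.4, 30.6, 23.6, 25.5 and 12.6 CPM in SF_HFD, with -0.86 ± 0.39 (SE) in all libraries and -0.38 in the deeper ones. Both genes overlapped between diets. Cdc20, the activator of the anaphase-promoting complex, lay at 0.01 and -0.43, and Ube2c, its ubiquitin-conjugating enzyme, at -0.20 and -0.31.

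Spindle assembly genes (12 members) had the most negative median of the role groups in all libraries, -0.96, which was also -0.96 in the deeper libraries. There 9 of the 12 were lower in SF_HFD without overlap, against 9.29% of all genes. Nusap1, which bundles spindle microtubules near chromosomes, had 221, 233, 233, 244 and 276 CPM in SF_CD and 116, 121, 93.8, 59.8 and 115 CPM in SF_HFD. The SF_CD libraries, shallow ones included, lay within a narrow band, and every SF_HFD library lay below it. The log2 fold change was -1.26 ± 0.30 (SE, adjusted p = 0.0982, edgeR) in all libraries and -1.27 (95% interval -1.86 to -0.69) in the deeper ones, and it was the member with the smallest adjusted p under DESeq2 (0.000521) and limma-voom (0.0055). Ckap5, a microtubule polymerase, lay at -1.43 and -0.91, and Ckap2l at -1.11 and -1.01. Dlgap5 (-1.18 and -1.27), Psrc1 (-1.42 and -1.46), Tpx2 (-0.81 and -0.84) and Ckap2 (-0.76 in both) changed little between the fits. Aurka, the spindle pole kinase, with its partner Tacc3, moved to more negative values in the deeper libraries, from -0.64 to -1.21 and from -0.36 to -0.79, as did the depolymerase Kif2c (-0.78 and -1.29). Hmmr went the other way, from -1.37 to -0.71, and Kif11, the motor that pushes the poles apart, from -0.39 to 0.14. Psrc1 had the lowest mean CPM of the 12 in both groups, at 0 to 5.46 CPM across the libraries.

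Central spindle and cytokinesis genes (8 members) had negative values for 7 members in all libraries and for all 8 in the deeper ones, with medians of -0.71 and -0.64. Prc1, which crosslinks the antiparallel microtubules of the midzone, had 451, 276, 271, 320.3 and 354 CPM in SF_CD and 88.0, 256, 127, 92.4 and 234 CPM in SF_HFD. The groups did not overlap, and the log2 fold change was -1.07 ± 0.37 (SE, adjusted p = 0.268, edgeR) and -1.04 in the deeper ones. Gas2l3, a linker of actin and microtubules, had 67.6, 33.7, 47.1, 51.1 and 113 CPM in SF_CD and 14.0, 26.5, 27.8, 24.2 and 39.2 CPM in SF_HFD. SF_HFD 5 overlapped SF_CD 2, and the values were -1.24 ± 0.40 (SE, adjusted p = 0.233, edgeR) and -0.93. The midzone kinesin Kif20a had the smallest p of the 54 in the deeper libraries, at -1.31 (95% interval -1.86 to -0.75), against -0.75 in all libraries. Its relative Kif20b went from -1.35 to -0.71, Kif23 stayed at -0.55 and -0.51, Ect2 had -0.27 and -0.56, Anln had -0.68 and -0.32, and Racgap1 had 0.21 and -0.15.

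**Figure D3:**
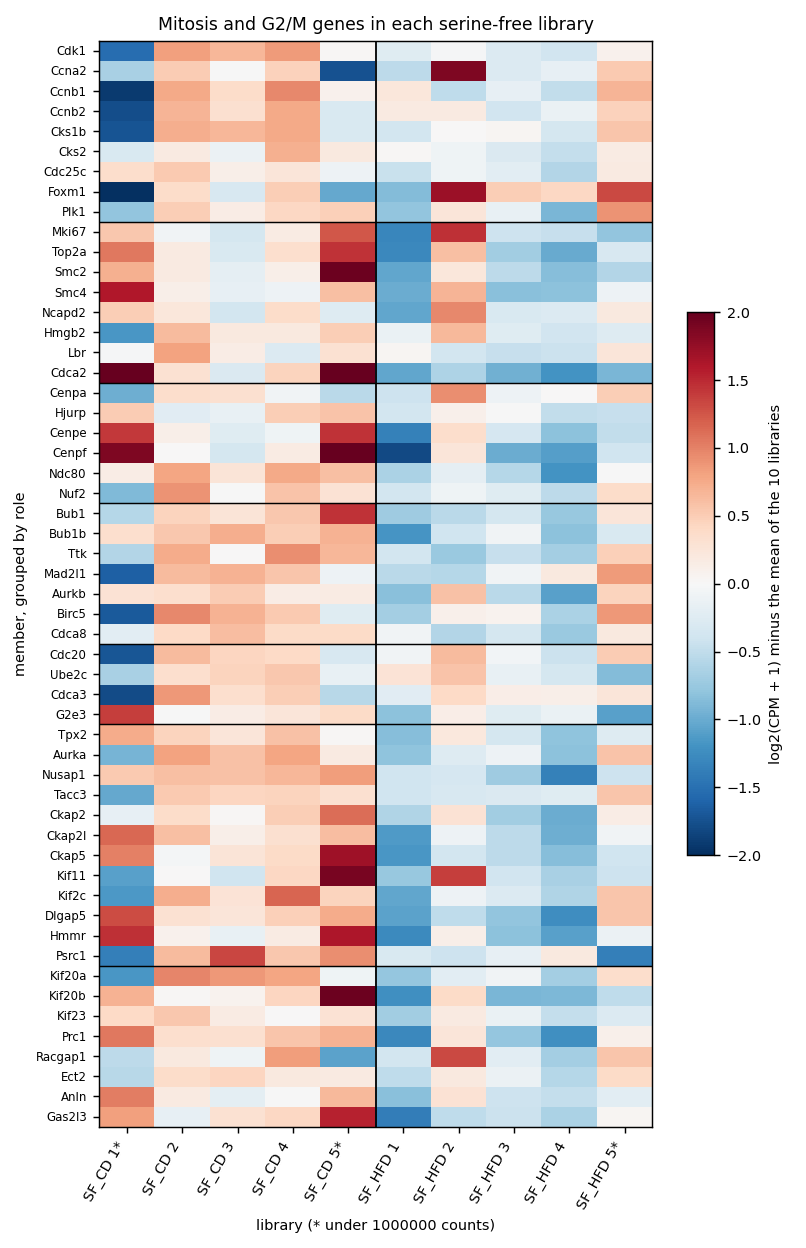
Log2(CPM + 1) of the 54 members in each of the 10 libraries, minus the member's mean over the libraries, with black lines between role groups and colours ending at 2 in either direction. SF_HFD 1, 3 and 4 are blue for most members, SF_CD 2 to 4 are pale red for most, and SF_CD 1 holds both deep red and deep blue members.

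In SF_CD 1 and SF_CD 5 the deviation of a member went with the length of its coding sequence. In both of these libraries together, 17 members lay above all of SF_CD 2 to 4, and their median coding length was 3363 bases. Another 17 lay below all of SF_CD 2 to 4, with a median of 1251 bases. Across the 54 members, the Spearman correlation between coding length and the deviation from SF_CD 2 to 4 was 0.65 in SF_CD 1 and 0.66 in SF_CD 5. Over 10857 coding genes it was 0.30 in each, lower than among the members and of the same sign. Other libraries showed length correlations too. Among the members it was 0.33 in SF_CD 4, 0.29 in SF_HFD 2, -0.42 in SF_HFD 1, -0.27 in SF_CD 3 and -0.24 in SF_HFD 5, the third shallow library, and it lay between 0.001 and 0.06 in the rest. Over all coding genes it was 0.31 in SF_HFD 2, no lower than in SF_CD 1 and 5. These are correlations across genes in 1 library, and genes are not independent replicates.

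The fold changes between diets went with coding length in the 10 libraries and much less in the 7 deeper ones. The Spearman correlation between coding length and the fold change was -0.12 over 10857 coding genes with all libraries. Among the members it was -0.52 with all libraries and 0.10 with the 7 deeper ones. The 27 shorter members (up to 1992 bases) had median fold changes of -0.31 and -0.76 in these fits, and the 27 longer ones (from 2001 bases) had -0.91 and -0.68. The same libraries had the high ribosomal RNA and low totals given above, and the part of RNA quality or depth in the pattern was not tested. Without SF_CD 1 and 5 alone, an alternative chosen after seeing the data, 49 members were negative, against 47.9% of all genes, with a median of -0.58, against 0.03.

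**Figure D4:**
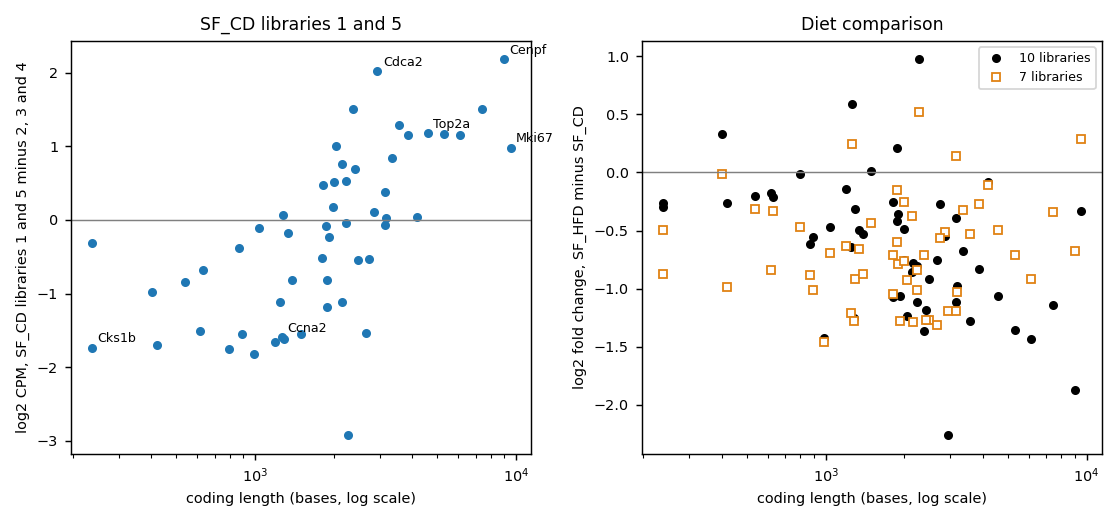
Coding length (log scale) of the 54 members against 2 differences. On the left is the log2 CPM difference of SF_CD 1 and 5 from SF_CD 2 to 4, which goes up with length. On the right is the fold change between diets, which slopes down with length in all 10 libraries (black, correlation -0.52) and is flat in the 7 deeper ones (orange, correlation 0.10).

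Within SF_HFD the members were not at one level. SF_HFD 2 was the highest library of its group for 29 members and SF_HFD 5 for 23, leaving 2 members for the other libraries. The members took 0.721% of all counts in SF_HFD 2 and 0.592% in SF_HFD 5, against 0.312%, 0.396% and 0.366% in SF_HFD 1, 3 and 4. In SF_CD the shares were 0.572%, 0.664%, 0.537%, 0.707% and 0.916%, so SF_HFD 2 and 5 lay within the range of SF_CD and the other SF_HFD libraries below it. Protein-coding genes took a smaller part of all counts in SF_CD 1 and 5, which lowers shares and list sums there relative to the other libraries.

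Many of the members varied together between libraries of the same diet. After centring within each group, the median correlation of a member with the mean of the other members was 0.52 over the 10 libraries, against 0.09 for other genes. It ran from -0.34 (G2e3) to 0.92 (Plk1), with 14 members over 0.7. Over the 7 deeper libraries the median was 0.80, against 0.05, with 36 members over 0.7. The share of all genes over 0.7 was not computed. In the deeper libraries Smc2 was at the top, with Tpx2, Hmmr and Top2a close to it. Psrc1 was lowest at -0.61, followed by Mad2l1 and Cdca8. The members' mean log2 CPM was 5.98 in SF_HFD 2, against 5.11, 5.45 and 5.18 in SF_HFD 1, 3 and 4. In SF_CD 2 to 4 it was 6.24, 6.01 and 6.25, so SF_HFD 2 weighs heavily in the correlations of the deeper libraries. With so few libraries, and with depth shared by all genes of a library, these are descriptions. By the same measure over the 10 libraries, the 20 other genes most like the members were Abhd8, Mcm3, Rnf187, Spdl1, Mcm7, Med24, Ilkap, Xbp1, Uhrf1, Bckdhb, Neil3, C1qtnf6, Kat7, Lmnb1, Brca1, Brip1os, Lmnb2, Becn1, Mbtps1 and Unc13d, with correlations from 0.97 down to 0.89. Mcm3, Mcm7 and Uhrf1 belong to the S-phase list and Spdl1 to the kinetochore list used below.

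Genes of DNA replication and S phase, the step before mitosis, were compared with the members library by library. Of 44 such genes tested, 25 had negative values, against 48.6% of all genes, and in the deeper libraries 36 did, against 47.4%. Their median was -0.10 in all libraries and -0.41 in the deeper ones. EdgeR, DESeq2 and limma-voom each called 0 of them. At an unadjusted p under 0.05 edgeR had 2 lower and 1 higher, where 6.73% and 4.92% of all genes were. In the deeper libraries 12 were lower and 0 higher at that level, where 7.97% and 8.56% of genes were. In limma-voom 8 were lower and 0 higher, where 1025 and 1281 of 11780 genes were, and 40 of 44 were negative, against 45.7%. The one with the smallest p was Cdt1, which licenses origins, at 1.63 ± 0.62 (SE, adjusted p = 0.323, edgeR), and it had 78.6 CPM in SF_HFD 2 and 3.89 to 17.7 CPM in the other libraries. The summed level of the members was 7.64, 2.33, 2.38, 2.44 and 3.28 times that of the S-phase genes in SF_CD 1 to 5. In SF_HFD 1 to 5 the ratio was 2.08, 2.28, 1.94, 2.07 and 1.82. Every SF_HFD library thus lay below every SF_CD library, with SF_CD 2 and SF_HFD 2 nearly touching, and SF_CD 1 stood apart through an S-phase sum of 748 CPM, where the others had 1497 to 3260.0 CPM. No p is given, because the members were chosen with results of these data known.

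**Figure D5:**
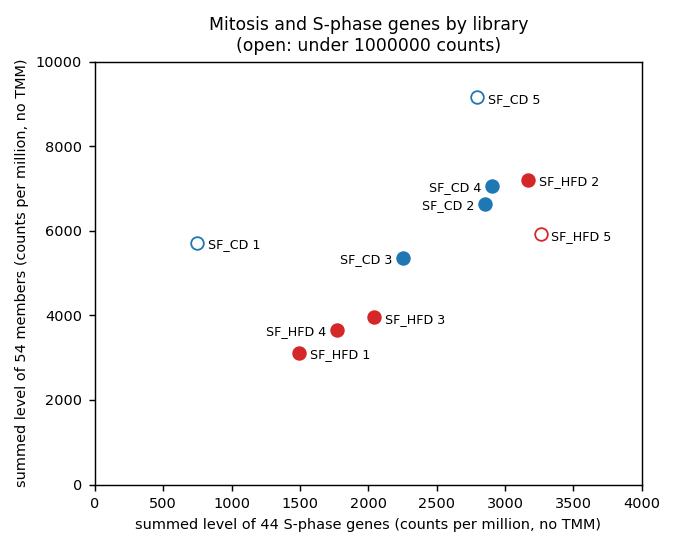
Summed CPM of the 54 members against summed CPM of 44 S-phase genes, without TMM scaling, 1 point per library, with open points under 1000000 counts. SF_HFD 1, 3 and 4 sit lowest on both axes among the libraries of at least 1000000 counts, and SF_CD 1 has a low S-phase sum beside a member sum of 5721 CPM.

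Further kinetochore and spindle genes, in lists chosen with earlier results of these data known, leaned the same way as the members. Of 26 further kinetochore, checkpoint and passenger genes, 24 were negative, against 48.6% of all genes, with a median of -0.40. EdgeR called 0 of them, with 3 lower and 0 higher at an unadjusted p under 0.05, where 6.73% and 4.92% of all genes were. Of 26 further spindle and cytokinesis genes, 23 were negative, against the same 48.6%, with a median of -0.58. EdgeR called 0 (5 lower and 0 higher at an unadjusted p under 0.05, against the same 6.73% and 4.92%). DESeq2 called 0 and limma-voom 1, Kif15, where it called 0.611% of genes lower. Esco2, a cohesin acetyltransferase, had the smallest p of that list, at -1.13 ± 0.38 (SE).

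Further condensin and cohesin genes were negative for 14 of 19, against 48.6% of all genes, with a median of -0.62 that became -0.16 in the deeper libraries. EdgeR called 0, with 4 lower and 0 higher at an unadjusted p under 0.05, where 6.73% and 4.92% of all genes were. Limma-voom called 0, and DESeq2 called 1, where it called 1.87% of genes lower. That gene, Ncapd3 of condensin II, had 149, 68.1, 48.2, 78.7 and 432 CPM in SF_CD and 24.3, 34.1, 31.4, 30.0 and 46.7 CPM in SF_HFD. Its groups did not overlap, though SF_CD 1 and 5 stood far above the rest, and the value was -2.21 ± 0.54 (SE, adjusted p = 0.0985, edgeR). Subunits and co-factors of the anaphase-promoting complex were negative for 7 of 17, near the 48.6% of all genes, with a median of 0.17. EdgeR called 0, with 1 lower and 1 higher at an unadjusted p under 0.05. The lower one was Fbxo5, an inhibitor of that complex, at -1.12 ± 0.38 (SE), which DESeq2 and limma-voom called. The list's median was -0.15 in the deeper libraries, so its sign depended on the libraries.

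Among regulators, 8 of 13 genes of the DREAM, MuvB and retinoblastoma group were negative, against 48.6% of all genes, with a median of -0.24. Lin9, a MuvB subunit, had the smallest p, at -1.06 ± 0.39 (SE), and its groups did not overlap. Of 14 genes that brake the cycle 10 were negative, with a median of -0.56 in all libraries and -0.06 in the deeper ones. Btg2 had the smallest p of these, at -2.31 ± 0.60 (SE), and DESeq2 called it. Its groups overlapped, as SF_CD 2 and 3 lay within the SF_HFD range of 26.7 to 80.4 CPM. The shallow SF_CD 1 and 5 stood highest, at 485 and 534 CPM, and SF_CD 4 had 211 CPM. Of 11 G1 cyclins and kinases 7 were negative, with a median of -0.28, and in the deeper libraries 6 were, with a median of -0.06. Skp2, the ligase subunit that destroys p27, had the smallest p of that list in all libraries, at -1.05 ± 0.42 (SE). EdgeR called 0 genes in each of these lists. At an unadjusted p under 0.05, 2, 3 and 1 were lower and 0, 1 and 0 higher, where 6.73% and 4.92% of all genes were. DESeq2 and limma-voom called 0 others.

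Ratios of related members within a library do not depend on how libraries are scaled, so 8 pairs were compared on them (log2 ratio of counts, pseudocount 0.5). No pair passed an exact two-sided permutation test over the 10 libraries, whose smallest possible p is 0.00794 for 5 against 5. A lone pair at that p would have an adjusted p of 0.0635, so a single shifted pair could not pass. The smallest p was that of Cenpe to Cenpf. Their log2 ratio was -0.83 ± 0.43 (SD, n = 5) in SF_CD and -0.27 ± 0.29 (SD, n = 5) in SF_HFD, a difference of 0.56 (exact permutation p = 0.0556, 0.444 after Benjamini-Hochberg adjustment over 8 pairs). The cyclin pair Ccnb1 to Ccnb2 was steady, at 2.31 ± 0.20 (SD, n = 5) and 2.10 ± 0.39 (SD, n = 5). Kif20a to Kif20b was the most variable, at -1.21 ± 1.48 (SD, n = 5) and -0.51 ± 0.61 (SD, n = 5), with Kif20a low and Kif20b high in SF_CD 1 and 5.

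Among markers of cell types, only the smooth muscle and fibroblast sums did not overlap between the diets. Over all genes edgeR called 0.323%, and at an unadjusted p under 0.05 it had 6.73% lower and 4.92% higher. Epithelial markers had 3012 to 6737 CPM in sum in SF_CD and 6314 to 11281 CPM in SF_HFD, with negative values for 2 of 14, against 48.6% of all genes. EdgeR and limma-voom called 0 of these 14 (in edgeR 1 lower and 5 higher at an unadjusted p under 0.05) and DESeq2 called 1, Krt8. Of 12 tested smooth muscle and fibroblast markers 4 were called higher in SF_HFD (Acta2, Actg2, Myl9 and Postn, edgeR), DESeq2 called 7 and limma-voom 9. In the deeper libraries edgeR called 3 of 14 tested (Col1a2, Myl9 and Postn), without Acta2 and Actg2. The sum over the list of 16 was 14.7 to 107 CPM in SF_CD and 249 to 429 CPM in SF_HFD. Fcer1g was called lower by edgeR among 5 tested macrophage, dendritic cell and neutrophil markers, DESeq2 and limma-voom called Fcer1g and Lyz2, and in the deeper libraries edgeR called Lyz2 and not Fcer1g, with list sums of 54.7 to 126 and 78.9 to 111 CPM. This list had no common direction in all libraries, with 3 of the 5 negative and a median of -0.20. At an unadjusted p under 0.05 edgeR had 2 of them lower and 1 higher. Muc2 and Zg16 were called lower among 7 tested goblet markers, with sums of 78.0 to 265 and 71.5 to 316 CPM. None of 9 crypt base stem markers was called by edgeR (4 lower and 0 higher at an unadjusted p under 0.05, and 0 lower in the deeper libraries, where the median went from -0.87 to -0.31), limma-voom called 0 and DESeq2 called 1, Lgr5, at -2.77 ± 0.75 (SE, edgeR). Of 4 tested absorptive colonocyte markers and 1 endothelial marker edgeR called 0, with 1 lower at an unadjusted p under 0.05, DESeq2 called 0 and limma-voom called 1, Guca2a. Of 13 lymphocyte markers 6 were at 0 in all 10 libraries, among them Cd3e, Cd4 and Cd8a, and 0 of the 13 passed the filter. The part of cell make-up in the levels of the mitosis genes was not tested.

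Counts of some members are uncertain because their transcripts share sequence with other genes. Of the 31-base words in the transcript, 46.9% of Ccnb1 also occurred in another gene, led by the pseudogene Ccnb1-ps, and the share was 31.7% for Cks2, 27.4% for Cdc20, 24.9% for Hmgb2, 23.7% for Cks1b and 19.96% for Ube2c. Ndc80 (17.2%), Plk1 (15.2%) and Racgap1 (11.4%) followed, and Nusap1 had 1.47% and Cdca2, Bub1b and Cdk1 0. Their genes lie, in mm10, at chr2:119618298-119651244 on the plus strand (Nusap1, 11 exons), chr14:67676331-67715841 on the minus strand (Cdca2, 15 exons), chr2:118598211-118641591 on the plus strand (Bub1b, 23 exons) and chr10:69335146-69352938 on the minus strand (Cdk1, 8 exons), from the GENCODE M21 annotation.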

How the data were processed

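Sequencing was of mRNA libraries that keep the strand, per the labels' protocols. Estimated counts per gene, from Salmon 1.3.0 on build mm10 per the submitters' processing notes, are what the authors deposited, as whole numbers in 1 table. How transcripts were annotated and summed to genes is not given in the sources used here. Columns were matched to samples by library name. Of 18 columns, the 8 of CD and HFD were left out. Salmon divides shared reads among similar transcripts by estimate. EdgeR 4.0.16 (R 4.3.3, quasi-likelihood, robust, TMM, filterByExpr) was run on the 10 serine-free libraries without covariates, with Benjamini-Hochberg adjustment over 11780 genes and a threshold of 0.05, two-sided. It was also run on simulated data, and the share of changes it recovered there is not reported here. A count of 0 called members therefore does not mean that no member differed. At 3 counts a level is 6.003 CPM in the shallowest library and 0.234 CPM in the deepest, for counting error only. Alternatives were RLE and upper quartile scaling, no filter and a stricter one, DESeq2 1.42.0, limma-voom (limma 3.58.1), removal of ribosomal, mitochondrial and Malat1 rows, a replicate block, removal of the 3 libraries under 1000000 counts, of each library, and of SF_CD 1 and 5. The members, the lists and the pairs were chosen with earlier results of these data known. Named were called members, Mki67, Top2a, Cdk1 and Ccnb1, the members of smallest p and highest mean CPM in each role, the gene of smallest p in each other list, and the 20 genes most correlated with the members. Other members are given by their fold changes. SF_CD 1 and 5, left out together, is the alternative added after seeing the data. Not every named gene of the other lists, nor its calls by other tools, is reported here.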

Additional observations from a re-analysis of the deposited data

Results flagged for a closer look

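In groups of 5 libraries, the gap between the extreme library and its nearest neighbour was compared with the range of the group for 50 groups, and 3 passed Dixon's critical value of 0.71. Chance passes about 1 group in 20. Mki67 had 263 CPM in SF_HFD 2, against at most 70.4 CPM in the other SF_HFD libraries, and the gap was 0.856 of the range. Hmgb2 had 996 CPM in SF_HFD 2, with a gap of 0.826 of the range. G2e3 had 74.4 CPM in SF_CD 1, with a gap of 0.806 of the range. In the CD and HFD columns, which were not used for comparisons, 20 rows labelled as members held more than 3 counts in any library. The row labelled Kif23 held from 8188 to 18621 counts there, and the labels of these columns do not name the genes counted, so no gene is named from them.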

How the results depend on the processing

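The number of members called, 0 with edgeR in 10 libraries, was 1 without the low-count filter (Cdca2, 0.222% of genes lower), 7 with DESeq2 (1.87% of genes lower) and 6 with limma-voom (0.611%). It was 0 to 1 when each library was left out, with 1 without SF_CD 2 (0.520%) or SF_CD 3 (0.343%). The count of called genes, 38, was 78 without the filter, 18 with the stricter one, 298 with DESeq2, 168 with limma-voom, and 16 to 88 when each library was left out (16 without SF_HFD 4, 88 without SF_CD 2, 19 without SF_HFD 2, 23 without SF_HFD 5 and 24 without SF_CD 4). With the replicate block 22 genes and 0 members were called, 47 members were negative, against 42.7% of all genes, and the median was -0.62, against 0.11. No pairing by replicate number was seen between the diets, as correlations of same-numbered libraries ran from -0.21 to 0.14, and 1 of 5 correlated best with its own number. Weak correlations cannot show that same-numbered libraries had no common source. Over the settings run the members' median lay between -0.76 and -0.51, and 47 to 53 members were negative. Over all genes the median lay between -0.04 and 0.11, and 42.7% to 52.4% were negative. With a library left out, a lone pair of related members could not reach an adjusted p below 0.127, so 0 passing pairs there say nothing of stability.

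Some members changed sign. In limma-voom Ccna2 was at -0.32, Cenpa at -0.18, Cdc20 at -0.51 and Racgap1 at -0.43. In the 7 deeper libraries Mki67 was at 0.29, Kif11 at 0.14, Cenpa at -0.016, Cdc20 at -0.43 and Racgap1 at -0.15, and the log2 ratio differences of Cks1b to Cks2, Aurka to Aurkb and Kif20a to Kif20b were -0.42, -0.40 and -0.49. Without SF_CD 1 and 5 Mki67 was at 0.14, Kif11 at 0.055, Cdc20 at -0.35 and Racgap1 at -0.093. Cdc20 was at -0.013 with RLE, -0.040 with DESeq2 and -0.0054 without ribosomal, mitochondrial and Malat1 rows. With the replicate block Ccnb2 was at 0.0068 and Cdca3 at 0.21, and without the filter Cdca3 was at 0.0028. Leaving out each library gave -0.10 to 0.79 for Ccna2, -0.37 to 0.028 for Ccnb2, -0.50 to 0.12 for Ncapd2, -0.20 to 0.18 for Cdc20, -0.24 to 0.25 for Cdca3, -1.10 to 0.20 for Kif11 and -0.28 to 0.53 for Racgap1. For the ratios it gave -0.11 to 0.44 for Cks1b to Cks2, -0.28 to 0.25 for Aurka to Aurkb and -0.55 to 0.0059 for Smc2 to Smc4. The cause of these changes was not tested. Depth limits scarce members most, since 14 had under 10 counts in SF_CD 1 and 6 in SF_CD 5.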
